A study of Mus musculus with 10 samples.

Results

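The genes described are the VEGF and angiopoietin ligands and their receptors, 10 genes of the 18193 that carry a named probe set on the array. They were chosen by name, not by their values: the ligands Vegfa, Vegfb, Vegfc and Pgf, the angiopoietins Angpt1 and Angpt2, and the receptors Kdr, Flt1, Flt4 and Tek. Together they have 19 probe sets that carry a single gene symbol, and every probe set is reported. The brightest probe set of a gene, by its mean over the arrays, is called its main probe set. RNA of each condition was hybridized to 1 Affymetrix mouse genome array, 10 arrays in all. PSI grafts held pancreatic islets of Wistar rats in a scaffold made from plasma, and PSI-F grafts held in addition cultured skin fibroblasts of nu/nu mice. Both were placed under the skin over the abdominal muscle of male Swiss nu/nu mice, 6 weeks old and made diabetic with streptozotocin, and were removed on days 1, 3, 7 and 10. Control was a subcutaneous biopsy of healthy mice without a transplant, and Diabetic was the same from mice given streptozotocin without a transplant. Nude mice lack mature T cells, and all grafts shared the streptozotocin treatment with Diabetic but not with Control.

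VEGF proteins are secreted growth factors that make endothelial cells divide, migrate and form vessels. Kdr (VEGFR2) carries most of the growth signal of Vegfa, Flt1 (VEGFR1) binds Vegfa, Vegfb and Pgf and can act as a trap for Vegfa, and Flt4 (VEGFR3) is the receptor of Vegfc, best known for lymphatic vessels. Angpt1 activates the receptor Tek (Tie2) and steadies vessels, whereas Angpt2, released by activated endothelium, often opposes it. An avascular islet graft depends on vessels that grow in from the recipient, which is why these genes bear on the comparison of PSI with PSI-F.

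Promoter sequence is shown for the genes whose levels stood out: Kdr and Vegfc, which were above both biopsies on all 8 grafts, and Flt1, which differed most between the biopsies. Each is the 250 bases before a RefSeq transcript start (build GRCm38.p6), written 5′ to 3′ on the strand of the gene. Capitals mark the core of the hypoxia response element (ACGTG or GCGTG) and ETS cores (CCGGAA or AGGAAG), searched on both strands, so that a match may read as its reverse complement.
Kdr: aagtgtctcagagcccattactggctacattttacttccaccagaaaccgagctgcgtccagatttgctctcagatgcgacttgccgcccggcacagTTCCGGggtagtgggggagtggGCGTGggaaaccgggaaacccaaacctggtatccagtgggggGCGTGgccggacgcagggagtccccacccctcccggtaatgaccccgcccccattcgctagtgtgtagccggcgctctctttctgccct
Flt1: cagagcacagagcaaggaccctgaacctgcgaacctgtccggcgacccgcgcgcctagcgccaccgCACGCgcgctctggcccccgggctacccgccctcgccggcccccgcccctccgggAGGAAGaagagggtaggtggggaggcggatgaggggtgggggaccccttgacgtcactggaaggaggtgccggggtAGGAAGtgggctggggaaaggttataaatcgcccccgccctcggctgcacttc
Vegfc: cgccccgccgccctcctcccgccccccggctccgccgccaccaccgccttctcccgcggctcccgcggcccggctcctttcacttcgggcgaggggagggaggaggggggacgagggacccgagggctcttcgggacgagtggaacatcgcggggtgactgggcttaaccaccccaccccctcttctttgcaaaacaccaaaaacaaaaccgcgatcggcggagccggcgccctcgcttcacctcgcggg
The Kdr window is chr5:75978456-75978705 on the minus strand, with 2 hypoxia cores and 1 ETS core. The Flt1 window is chr5:147726012-147726261 on the minus strand, with 1 hypoxia core and 2 ETS cores. Both windows lie inside the full span RefSeq gives for their gene, which also counts longer transcripts. The Vegfc window is chr8:54077282-54077531 on the plus strand, directly before the gene, and held neither kind of core in these letters. Of 32851 such windows of the mouse genome, 38.6% held a hypoxia core and 38.2% an ETS core, so that a match describes the letters and is not a binding site. Windows were given for 8 of the 10 genes.

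The deposited values are log2 levels made by RMA, so a difference of 1 is 2-fold. Their medians lay between 2.82 and 2.94 on the 10 arrays. The mean level over the 10 arrays was above 4 for the main probe sets of 5 genes (Vegfa, Vegfb, Kdr, Flt1 and Tek) and under 3.5 for those of Vegfc, Pgf and Angpt2, where differences are less reliable. No gene's level is set against that of another, since probes differ in brightness. The range over the 10 arrays ran from 0.47 for Flt4 to 1.54 for Angpt2, with a median of 1.07 over the 10 genes. The median range was 0.79 over all genes, and 0.97 over genes whose highest level was 4 or more. Since each condition has 1 array, differences between single arrays lack a check by replicates and are given without a p. In whole tissue, fewer cells of a type and less RNA per cell cannot be told apart, and rat islet RNA was seen only where it bound mouse probes.

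**Figure D1:**
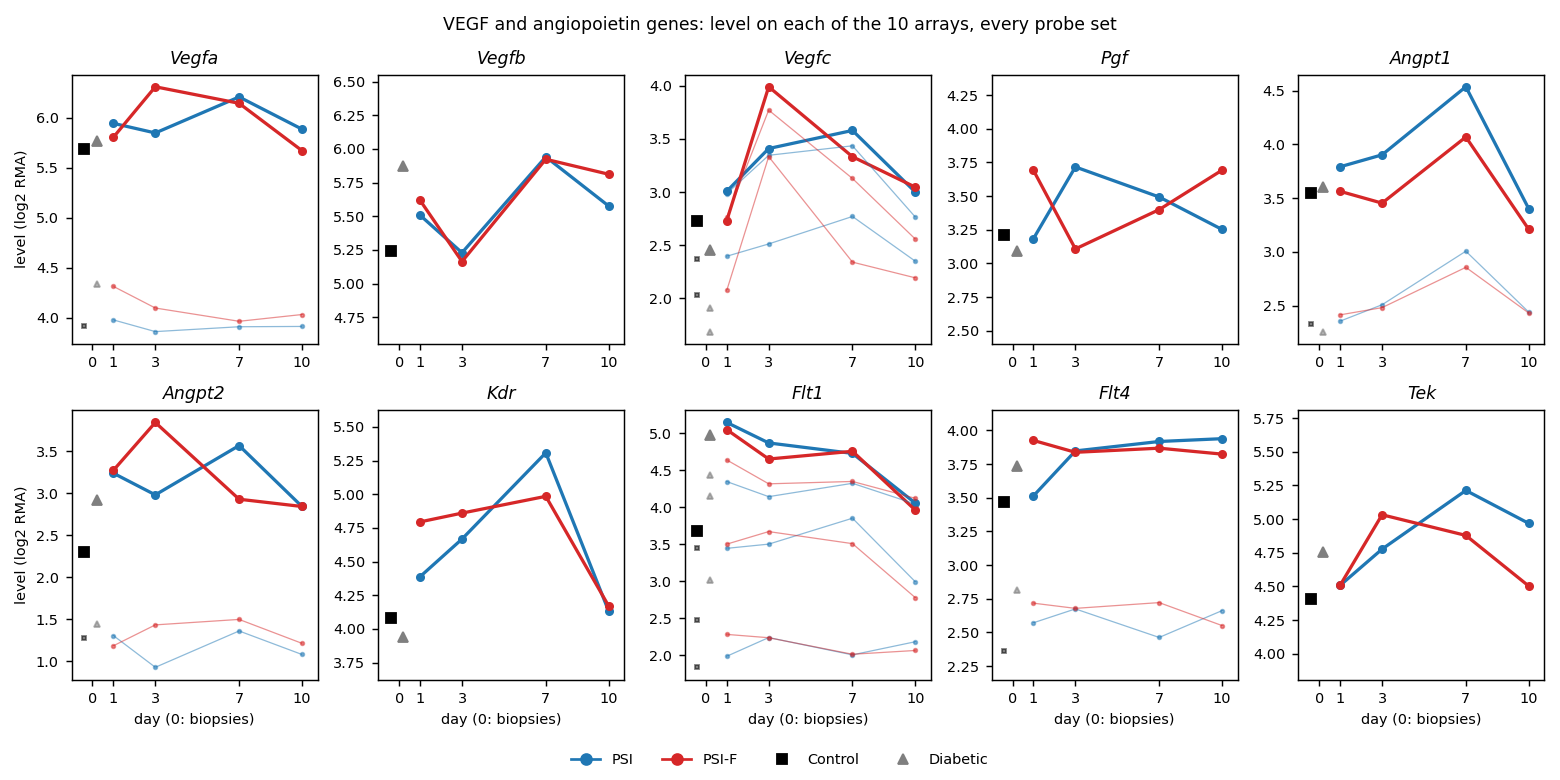
Level (log2 RMA, y axis) of each gene against the day (x axis), with PSI in blue, PSI-F in red, Control as a black square and Diabetic as a gray triangle. The thick line with large symbols is the main probe set and thin lines are the others, 1 array per point. Kdr and Vegfc lay above both biopsies on all 8 grafts, and all 4 probe sets of Flt1 were lower in Control than in Diabetic.

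Vegfa, the main driver of vessel growth and a target of hypoxia signalling, differed little between conditions. Its main probe set (1420909_at) gave log2 levels of 5.69 for Control and 5.76 for Diabetic. In PSI it was 5.95, 5.85, 6.21 and 5.89 on days 1, 3, 7 and 10, and in PSI-F 5.81, 6.31, 6.15 and 5.67. The highest array was PSI-F on day 3, and 7 of the 8 grafts lay above both biopsies. The second probe set (1451959_a_at) ran between 3.86 and 4.34 with its highest level in Diabetic, and no graft lay above both biopsies. Over the 10 arrays the correlation between the 2 probe sets was -0.18, so the pattern of Vegfa rests on the main probe set alone.

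Vegfb, a ligand of Flt1 linked to muscle and fat more than to vessel growth, was lowest on day 3 in both kinds of graft. Control gave a log2 level of 5.24 and Diabetic one of 5.87. PSI gave 5.51, 5.23, 5.94 and 5.58 on days 1, 3, 7 and 10, and PSI-F gave 5.62, 5.16, 5.92 and 5.81. The grafts spanned the range of the biopsies, and the 2 kinds of graft ran close together up to day 7.

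Vegfc, the ligand of Flt4 and also of Kdr once processed, was the ligand with the largest mean difference between biopsies and grafts. The main probe set (1439766_x_at) gave log2 levels of 2.73 for Control and 2.46 for Diabetic. PSI gave 3.01, 3.41, 3.58 and 3.00 and PSI-F 2.73, 3.99, 3.33 and 3.05 on days 1, 3, 7 and 10. All 8 grafts lay above both biopsies, but PSI-F on day 1 exceeded Control by so little that both print as 2.73, and after cyclic loess normalization Vegfc no longer met this. The highest array was PSI-F on day 3, which was 1.53 above Diabetic. The other 2 probe sets gave the same picture, with all 8 grafts above both biopsies and PSI-F on day 3 highest at 3.77 (1440739_at) and 3.33 (1419417_at). Correlations between the 3 probe sets ran from 0.93 to 0.96 over the 10 arrays. A probe set with the ending x can share probes with other transcripts, and the levels of all 3 are low.

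Pgf, a ligand of Flt1 that is scarce in resting tissue, switched order between PSI and PSI-F from day to day. Its single probe set gave log2 levels of 3.21 for Control and 3.09 for Diabetic. PSI gave 3.18, 3.72, 3.49 and 3.25 and PSI-F 3.69, 3.11, 3.40 and 3.69 on days 1, 3, 7 and 10. PSI-F stood above PSI on days 1 and 10 and below it on days 3 and 7, and 6 of the 8 grafts lay above both biopsies.

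Angpt1, the agonist of Tek made by pericytes and other stromal cells, peaked on day 7 in both kinds of graft and was lower in PSI-F on each of the 4 days. The main probe set (1439066_at) gave log2 levels of 3.55 for Control and 3.60 for Diabetic. PSI gave 3.79, 3.90, 4.53 and 3.40 and PSI-F 3.56, 3.45, 4.07 and 3.21 on days 1, 3, 7 and 10. The differences PSI-F minus PSI were -0.23, -0.45, -0.47 and -0.19. The second probe set (1421441_at), dimmer, followed the same time course (correlation 0.81 over the 10 arrays) and also peaked on day 7, at 3.01 in PSI and 2.86 in PSI-F. Its differences between PSI-F and PSI were 0.06, -0.03, -0.15 and -0.01, so the lower level in PSI-F was seen on the main probe set.

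Angpt2, the context-dependent ligand of Tek stored in endothelial cells, showed the largest difference between PSI-F and PSI among the 10 genes. The main probe set (1448831_at) gave log2 levels of 2.30 for Control and 2.92 for Diabetic. PSI gave 3.24, 2.98, 3.57 and 2.84 and PSI-F 3.28, 3.85, 2.93 and 2.84 on days 1, 3, 7 and 10. PSI-F on day 3 was highest, 0.86 above PSI, and on day 7 PSI-F was 0.64 below PSI. The second probe set (1459636_at) stayed between 0.93 and 1.5, far below the array medians, and correlated with the main one at 0.27. Its difference PSI-F minus PSI was 0.51 on day 3 and 0.14 on day 7, where the main probe set had the opposite sign.

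Kdr, the main signalling receptor for Vegfa on endothelial cells, was higher in every graft than in either biopsy. Its single probe set (1449379_at) gave log2 levels of 4.08 for Control and 3.94 for Diabetic. PSI gave 4.39, 4.67, 5.31 and 4.13 and PSI-F 4.80, 4.86, 4.98 and 4.17 on days 1, 3, 7 and 10. The level climbed to day 7 in both kinds of graft, and by day 10 it was back near Control. PSI on day 7 was 1.37 above Diabetic and PSI-F on day 7 was 1.04 above it. In order of level PSI on day 7 stood highest, then PSI-F on days 7, 3 and 1, then PSI on days 3 and 1, then the day 10 grafts and the biopsies, and no neighbouring pair in this order could be tested.

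Flt1, which binds Vegfa tightly but signals weakly, differed most between the 2 biopsies. The main probe set (1419300_at) gave log2 levels of 3.69 for Control and 4.98 for Diabetic, a difference of 1.29. PSI gave 5.15, 4.87, 4.73 and 4.06 and PSI-F 5.05, 4.65, 4.76 and 3.96 on days 1, 3, 7 and 10. The early grafts were near Diabetic and the day 10 grafts lay between the biopsies. The other 3 probe sets were also lower in Control than in Diabetic, by 0.98 (1451756_at), 1.67 (1440926_at) and 1.17 (1454037_a_at). On 1440926_at the day 10 grafts were again the lowest of the grafts, at 2.99 in PSI and 2.78 in PSI-F. On 1454037_a_at all 8 grafts lay between 1.99 and 2.28 while Diabetic was at 3.01. Correlations between pairs of the 4 probe sets ran from 0.42 to 0.84, and which transcript form each of them reads was not examined.

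Flt4, the receptor of Vegfc, had the smallest range of the 10 genes. The main probe set (1444052_at) gave log2 levels of 3.47 for Control and 3.74 for Diabetic. PSI gave 3.51, 3.85, 3.92 and 3.94 and PSI-F 3.93, 3.84, 3.87 and 3.82 on days 1, 3, 7 and 10. PSI on day 1 stood below the other 7 grafts. The second probe set (1421442_at) ran from 2.36 in Control to 2.82 in Diabetic with the grafts in between, and correlated with the main one at 0.47.

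Tek, the angiopoietin receptor of endothelial cells, gave log2 levels of 4.40 for Control and 4.76 for Diabetic on its single probe set (1418788_at). PSI gave 4.51, 4.78, 5.21 and 4.97 and PSI-F 4.51, 5.03, 4.88 and 4.50 on days 1, 3, 7 and 10. PSI and PSI-F were level on day 1, PSI-F was higher on day 3, and PSI was higher on days 7 and 10. In total 5 of the 8 grafts lay above both biopsies and no graft below both.

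The first comparison asked how the grafts differed from tissue without a graft. All 10 main probe sets had a positive mean difference between the 8 grafts and the 2 biopsies, with a median of 0.27 on the log2 scale against -0.02 over all genes. Of all 19 probe sets 16 were positive, and the negative ones were Vegfa 1451959_a_at (-0.12), Angpt2 1459636_at (-0.11) and Flt1 1454037_a_at (-0.30). The largest were Vegfc (0.67, SE 0.27, adjusted p = 0.220) and Kdr (0.65, SE 0.27, adjusted p = 0.237), followed by Angpt2 (0.58, SE 0.27, adjusted p = 0.289). The value of Angpt2 was 0.27 without Control, 0.89 without Diabetic and 0.23 when its 2 probe sets were averaged. The probe set 1440739_at of Vegfc gave 0.96 (SE 0.28, adjusted p = 0.103). With limma and Benjamini-Hochberg adjustment over 45037 probe sets, 0 of the 10 genes passed the adjusted threshold of 0.05, where 2.16% of all genes were called higher and 0.693% lower. At an unadjusted p under 0.05, 2 of the 10 genes passed, Vegfc and Kdr, a share close to the 20.8% of all genes that did. Without the Control array the differences of Vegfb and Flt1 changed sign, as did that of Vegfb without either day 7 graft or with the grafts of days 1 and 3 alone. This comparison is imprecise: its 95% intervals reached up to 0.78 to either side, for Flt1. Diabetic minus Control was 1.29 for Flt1, -0.14 for Kdr and -0.28 for Vegfc. The standard deviation over the 8 grafts was 0.43, 0.41 and 0.40 for the same genes.

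Taken array by array, Vegfc and Kdr were the 2 genes with all 8 grafts above both biopsies, a pattern that 8.15% of all genes shared. Against Diabetic alone, the same genes were at least 2-fold higher on at least 1 graft, where 15.1% of all genes were. For Vegfc these were PSI-F on day 3 and PSI on day 7, and for Kdr both day 7 grafts. Flt1 was 2-fold lower on PSI-F on day 10 (-1.01 on the main probe set), where 11.1% of all genes were lower on at least 1 graft. Other probe sets of Flt1 also passed, 1440926_at on both day 10 grafts (-1.15 in PSI and -1.37 in PSI-F) and 1454037_a_at on PSI on days 1 (-1.03) and 7 (-1.01). Between the biopsies Flt1 was the 1 gene of the 10 that differed 2-fold, where 11.0% of all genes did. With Control as the baseline, Vegfc, Kdr, Flt1 and Angpt2 were 2-fold higher on at least 1 graft. The share of all genes was not counted for this baseline, so this count has nothing to be set against. For Flt1 and Angpt2, Control was the lowest of the 10 arrays. The levels of Flt1 in Control and Diabetic lay further apart than those of the 8 grafts did from each other.

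The second comparison asked whether fibroblasts changed these genes. On no day did any of the 10 genes differ 2-fold between PSI-F and PSI. Over all genes, 1.13% differed 2-fold on day 1, 2.86% on day 3, 1.78% on day 7 and 0.731% on day 10. At 1.5-fold, a limit chosen after the values were seen, Angpt2 (0.86) and Pgf (-0.61) differed on day 3, where 8.87% of all genes did, and Angpt2 (-0.64) on day 7. The median difference of the 10 genes was 0.02 on day 1, 0.09 on day 3, -0.17 on day 7 and -0.05 on day 10. On day 3 their median size without sign was 0.35, against 0.18 over all genes. It was 0.18 against 0.19 on day 1, 0.17 against 0.22 on day 7 and 0.15 against 0.12 on day 10. On day 7, 9 of the 10 genes were lower in PSI-F, all but Flt1, as were 57.2% of all genes, whose median difference that day was -0.06. After cyclic loess normalization 6 of the 10 were lower. The differences of Vegfb, Flt4, Vegfa and Pgf on that day ran from -0.02 to -0.09, close to the median of all genes.

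**Figure D2:**
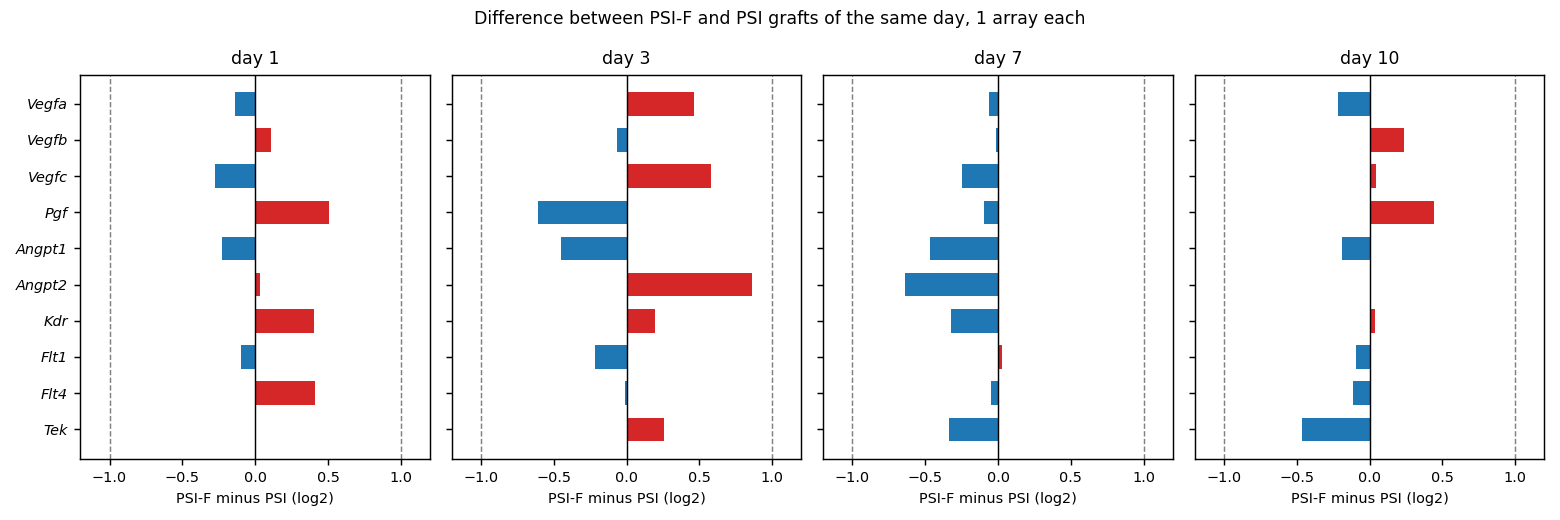
PSI-F minus PSI (log2, x axis) for the main probe set of each gene (y axis) on days 1, 3, 7 and 10, 1 array on each side and so no error bars. Red bars are higher in PSI-F and blue bars lower, and dashed lines mark 2-fold. No bar reaches 2-fold, and the longest are Angpt2 on day 3 (0.86) and day 7 (-0.64).

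With the day as a block over the 8 grafts, limma called 0 of the 10 genes and 0 of the 19 probe sets, as it called 0% of all genes. Angpt1 had the largest difference (-0.33, SE 0.10, 95% interval -0.57 to -0.10, adjusted p = 0.751) and was the 1 gene with an unadjusted p under 0.05, which 6.28% of all genes had. Averaged over its 2 probe sets the difference of Angpt1 was -0.18. On their main probe sets the other 9 genes lay between -0.14 for Tek and 0.08 for Kdr. Over all 19 probe sets the highest difference was 0.19, for Vegfa 1451959_a_at. For Flt1, 1451756_at gave 0.14 where the main probe set gave -0.10. Averaging the probe sets of a gene turned the sign for Vegfc and Flt1. All 10 intervals stayed within 2-fold in either direction, the widest being that of Angpt2 (-0.43 to 0.56). A mean difference of 2-fold in measured level over the 4 days therefore lay outside the interval of each gene. These intervals take the days as replicates, with 1 array per condition, and are not adjusted for the number of genes. Those of Vegfc, Pgf and Angpt2 are less reliable, since their levels are low. Smaller differences, or ones that turn with the day, were not tested with replicates. For Vegfa, Vegfc and Angpt2 the sign of the mean difference turned when day 3 was left out, for Pgf, Kdr and Flt4 when day 1 was left out, and for Pgf also when day 10 was.

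A crossing of the 2 kinds of graft was seen on the main probe sets of several genes after their values were known. The patterns named here are those of main probe sets. Vegfa, Vegfc, Angpt2 and Tek were highest on day 3 among the PSI-F grafts, which 25.3% of all genes were. Among the PSI grafts, Vegfa, Vegfb, Vegfc, Kdr, Angpt1, Angpt2 and Tek were highest on day 7, which 29.9% of all genes were. For Vegfa, Vegfc, Kdr, Angpt2 and Tek, PSI-F exceeded PSI on day 3 but not on day 7, when it was the lower one, a sequence that 27.5% of all genes had. After cyclic loess normalization Vegfa and Tek were no longer highest on day 3 among PSI-F grafts, while the 7 genes highest on day 7 among PSI grafts stayed the same. The test of whether the change from days 1 and 3 to days 7 and 10 differed between PSI-F and PSI called 0 of the 10 genes, as it called 0% of all genes, and none of the 10 had an unadjusted p under 0.05, against 1.37% of all genes. The largest such difference was that of Angpt2 (-0.77, SE 0.40, adjusted p = 1.0). On simulated data this test found 2 of 100 probe sets changed by 1 and 55 of 100 changed by 2 on the log2 scale, so it could detect few changes of this size. The simulated spread left out changes between days within the early or the late grafts, so both counts are likely too high for these data.

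The third comparison set the late grafts (days 7 and 10) against the early ones (days 1 and 3), 4 against 4 arrays. Vegfb was higher in the late grafts (0.43, SE 0.14, adjusted p = 0.203) and Flt1 lower (-0.55, SE 0.21, adjusted p = 0.274). They were the 2 genes with an unadjusted p under 0.05, which 16.8% of all genes had. Of the 10 genes limma called 0, where 0.0605% of all genes were called higher and 0.313% lower. The mean level of Vegfb was 5.38 in the early and 5.81 in the late grafts, and the 2 groups overlapped. The mean level of Flt1 was 4.93 in the early and 4.38 in the late grafts, and the differences of its 3 other probe sets were -0.25, -0.15 and -0.12 (-0.27 when all 4 were averaged). The remaining 8 genes lay between -0.29 for Angpt2 and 0.18 for Tek. Day 7 and day 10 were unlike for Kdr and Angpt1, whose main probe sets peaked on day 7 and were lowest on day 10 in both kinds of graft, so a mean over both days hid this. The second probe set of Angpt1 was lowest on day 1 in both. Of 12 probe sets for the spike-in control RNAs Dap, Lys, Phe and Thr, 7 were brighter on all arrays of days 7 and 10 than on any array of days 0, 1 and 3, so that handling and time cannot be told apart in this comparison. The same limit holds for the day 7 and 10 grafts in grafts minus biopsies. It also holds for the rise of Kdr to day 7 and for the differences of day 7 and 10 grafts from Diabetic or Control.

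**Figure D3:**
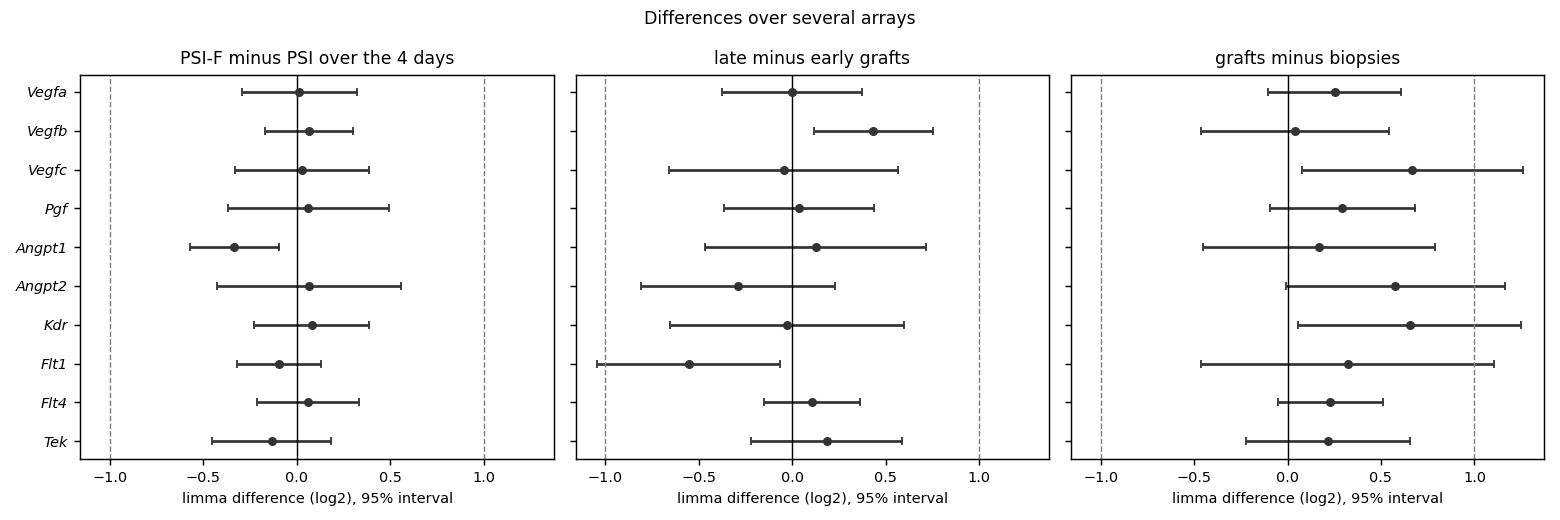
Mean difference (log2, x axis) of the main probe set of each gene (y axis) in 3 limma comparisons, with 95% intervals over 8 grafts, 8 grafts and 10 arrays. Dashed lines mark 2-fold. Intervals of PSI-F minus PSI all stay within 2-fold, and in grafts minus biopsies all 10 points lie above 0.

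Other genes of the pathway were followed with lists. Of 11 co-receptors and further ligands, 2 were called higher in grafts than in biopsies and 0 lower, with a median difference of 0.56 and 6 at an unadjusted p under 0.05. Beside these and the later lists stand the shares of all genes: 2.16% were called higher in grafts, and an unadjusted p under 0.05 was reached by 20.8% in grafts minus biopsies, 16.8% in late minus early grafts and 6.28% in PSI-F minus PSI. Nrp1, the co-receptor that helps Kdr bind Vegfa, gave log2 levels of 6.19 for Control and 5.68 for Diabetic and lay between 7.05 and 8.24 on the grafts. Its difference was 1.64 (SE 0.31, adjusted p = 0.0254). Ccbe1, a secreted protein needed to activate Vegfc, was at 3.14 in Control and at 2.86 in Diabetic and lay between 3.68 and 4.65 on the grafts, a difference of 1.13 (SE 0.25, adjusted p = 0.0447). Plxnd1, a semaphorin receptor of endothelium (1.30, SE 0.30, adjusted p = 0.0512), and Tie1, the orphan partner of Tek (1.24, SE 0.36, adjusted p = 0.100), did not pass. The calls of Nrp1 and Ccbe1 were lost without the Diabetic array and with the grafts of days 1 and 3 or of days 7 and 10 alone, with adjusted p up to 0.214 and 0.278 over the alternatives, and that of Ccbe1 also without any 1 of the grafts of days 1, 3 and 7. In PSI-F minus PSI and in late minus early grafts, limma called 0 of the 11, with 1 at an unadjusted p under 0.05 in each.

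Signal transduction genes and targets were less uniform. Of 21 measured genes of VEGF and Tie2 signal transduction, limma called 0 in any of these comparisons, with 10 at an unadjusted p under 0.05 in grafts minus biopsies (median difference 0.22), 10 in late minus early grafts and 3 in PSI-F minus PSI, against the 20.8%, 16.8% and 6.28% of all genes given above. Dok2, an adaptor bound by Tek and also found in blood cells, gave 1.60 (SE 0.44, adjusted p = 0.0876). Foxo1, which Tek signalling restrains, gave -1.07 (SE 0.36, adjusted p = 0.142) and had 6.32 in Control against 8.04 in Diabetic. Of 13 genes that respond to VEGF or mark tip cells, limma called 0, with 7, 4 and 2 at an unadjusted p under 0.05 in the same comparisons. On single arrays, Egr3 on day 1 (-1.09) and Unc5b on day 3 (-1.43) were more than 2-fold lower with fibroblasts. None of the 13 was 2-fold higher with fibroblasts on any day. On day 1, 1.13% of all genes differed 2-fold in either direction. Aplnr, the apelin receptor of growing vessels, had a level of 6.59 in Control, 3.22 in Diabetic and 6.46 to 8.62 on the grafts (difference 2.69, SE 0.78, adjusted p = 0.100). Esm1, a marker of tip cells, stayed between 0.57 and 0.91 on every array. This is far below the array medians, so a change in Esm1 might not be seen. Of 12 genes listed for hypoxia, limma called 0, with 1, 4 and 1 at an unadjusted p under 0.05. The list includes the hypoxia factors Hif1a and Epas1 themselves. Its median difference was 0.07 between grafts and biopsies and -0.22 between late and early grafts. Adm, adrenomedullin, was 0.78 lower on average in the late grafts (SE 0.21, adjusted p = 0.142). On day 3, 2 of the 12 exceeded 2-fold in favour of PSI-F, the oxygen-regulated factor Hif1a (1.03) and the glucose transporter Slc2a1 (1.03). Of all genes, 2.86% differed 2-fold in either direction that day. The list median was 0.19, and Ldha (-0.30) and Pgk1 (-0.18) were lower in PSI-F.

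Markers of endothelial cells, which carry Kdr, Flt1 and Tek, were also brighter on the grafts. The median of 15 endothelial markers lay at a level of 4.32 in Control and of 4.90 in Diabetic. In PSI it was 4.96, 5.30, 5.75 and 5.10 and in PSI-F 5.13, 5.53, 5.54 and 5.30 on days 1, 3, 7 and 10. All 8 grafts were above both biopsies and PSI on day 7 was highest, as for Kdr. Of the 15, limma called 3 higher in grafts (Sox18, Egfl7 and Eng) and 0 lower, with a median difference of 0.81 and 12 at an unadjusted p under 0.05, where 2.16% of all genes were called higher and 20.8% had such a p. The calls of Sox18, Egfl7 and Eng were lost without the Diabetic array and with the early or the late grafts alone, and that of Eng also without any 1 graft of days 1, 3 and 7 or without Control. Of 4 measured lymphatic endothelial markers, Lyve1 and Pdpn were called lower in late than in early grafts, where 0.313% of all genes were. Lyve1 gave -1.64 (SE 0.23, adjusted p = 0.0366) and Pdpn -1.29 (SE 0.20, adjusted p = 0.0442). The other markers, Mmrn1 (-0.07) and Prox1 (-0.14, at a mean level of 1.46), were not called. The calls of Lyve1 and Pdpn were lost whichever of the 8 grafts was left out. Lyve1 and Pdpn are also made by macrophages or stromal cells. Whether the levels of Kdr, Flt1 and Tek followed the number of endothelial cells was not tested.

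Other tissue moved between arrays as well. The median of 7 monocyte and macrophage markers ran from 4.56 to 5.68 in the biopsies and from 6.55 to 8.23 on the grafts, with PSI-F on day 3 highest, as for Vegfa, Vegfc and Angpt2. The median of 11 hair follicle markers ran from 2.71 in PSI-F on day 3 to 10.35 in Control, and was 8.87 in PSI on day 3. The median of 10 pericyte and smooth muscle markers was 6.57 to 6.77 in the early and 7.16 to 7.50 in the late grafts. The median of 6 fibroblast and matrix markers was 9.79 to 11.42 on the grafts, and PSI-F did not exceed PSI on days 1, 7 and 10 (medians of the difference -0.31, -0.19 and -0.12, against 0.12 on day 3). Skeletal muscle markers had a median between 11.21, in PSI-F on day 3, and 12.21, in Diabetic, and it was 11.89 in PSI on day 3. On day 3 the median of PSI-F minus PSI was -0.61 for 8 skeletal muscle markers. It was -0.79 for 5 adipocyte markers and 1.34 for 5 neutrophil markers. The islet label was borne out by Ins2, at 7.70 to 10.60 on the grafts against 2.27 and 3.13 in the biopsies. It was the 1 of 6 measured islet markers called higher in grafts. The median of the 6 was 3.33 to 4.15 on the grafts against 2.43 and 2.96. Iapp was at 3.48 to 5.21 against 2.59 and 3.28, while Gcg stayed at 0.88 to 1.54 against 0.82 in both biopsies. The part of these tissues in the levels of the 10 genes was not tested.

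**Figure D4:**
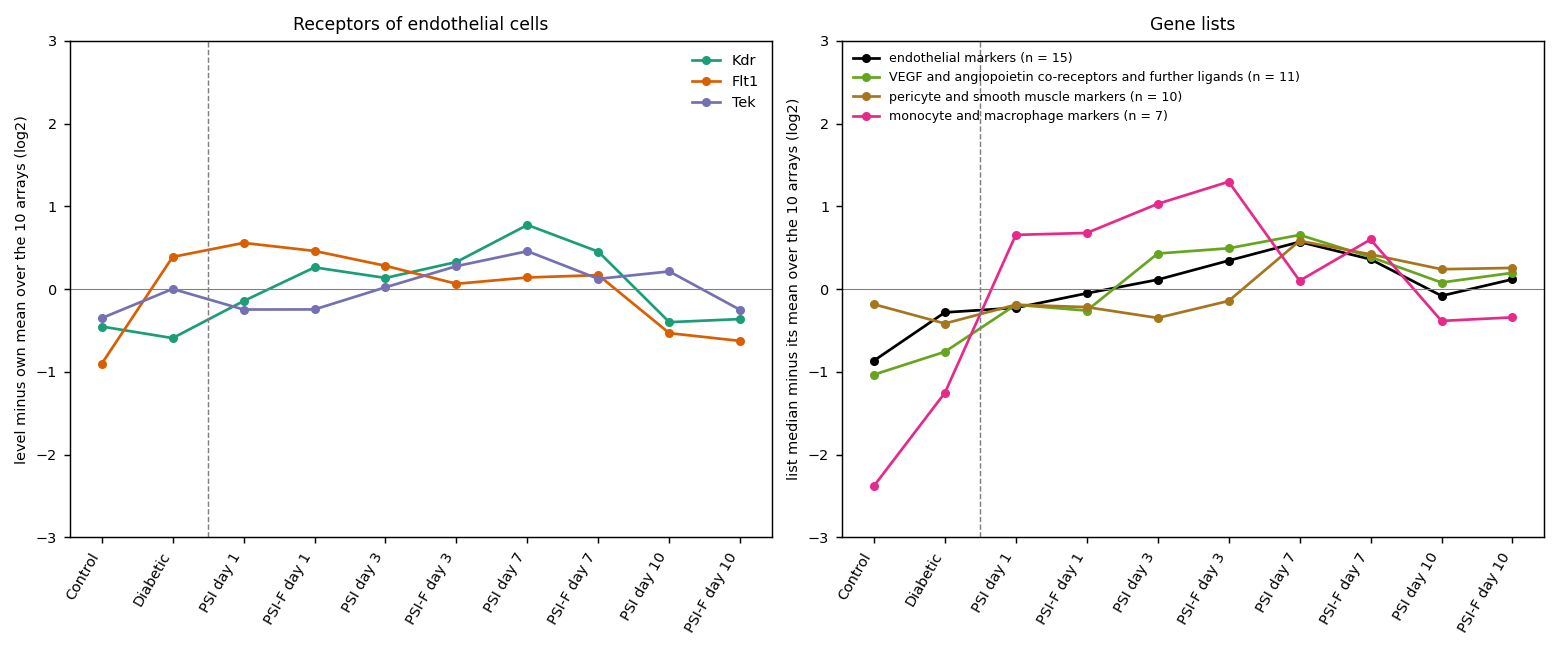
Level of Kdr, Flt1 and Tek (left) and median level of 4 gene lists (right) on each array, each minus its own mean over the 10 arrays (log2, y axis), with the arrays on the x axis and biopsies left of the dashed line. Kdr and the 15 endothelial markers are highest on PSI on day 7, and Flt1 and the monocyte and macrophage markers are lower on day 10 than on days 1 to 7.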

How the data were processed

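Values were the log2 levels per probe set that the authors deposited, made with RMA (background correction, quantile normalization, summary per probe set). According to the submitters' processing notes this was done in R 2.15.0 with affy 1.36.0. RNA was chosen for hybridization by its quality. The sources used here do not say whether 1 mouse or more went into an array. Of 45101 probe sets, 34945 carry 1 symbol and give 18193 genes. The 64 control probe sets were left out of tests. The genes, the lists and the tests were chosen with earlier results of these data known. Of 154 list genes 144 were measured. Named beside the 10 genes were list members among the 4 with the largest difference in at least 1 comparison, the called endothelial markers and the measured lymphatic markers. Not all such list members were named: Shb (-1.12 in grafts minus biopsies), for example, was not. Esm1 was among the 4 in PSI-F minus PSI alone (-0.17). The 3 genes of most similar pattern per gene were named too (Pearson correlation over 10 arrays, highest level 5 or more). Chosen after values were seen were Ins2, Iapp, Gcg, Ldha, Pgk1 and the crossing of PSI and PSI-F.

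All 45037 probe sets entered limma (version 3.58.1, R 4.3.3), in 4 models: PSI-F against PSI with day as block, days 7 and 10 minus days 1 and 3 with the kind of graft as covariate, their interaction, and grafts minus biopsies. Days stood in for replicates, so changes with time enter the spread. A gene was called at a Benjamini-Hochberg adjusted p under 0.05. Single arrays were compared at 2-fold. The precision is limited by the number of arrays. On simulated data, of 100 probe sets changed by 1 on the log2 scale, 65 were recovered for PSI-F minus PSI, 81 for late minus early and 62 for grafts minus biopsies. For late minus early the simulated spread left out changes between days, so 81 is likely too high for these data. The SE of Kdr, for example, was 0.13 in PSI-F minus PSI, with day as block, and 0.27 in late minus early. Alternatives were cyclic loess (3 iterations), the mean of a gene's probe sets, a highest level of 4 or more, an intensity trend, no block, other thresholds and baselines, and leaving out each array or day.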

Additional observations from a re-analysis of the deposited data

How the results depend on the processing

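In PSI-F minus PSI, late minus early grafts, grafts minus biopsies and the interaction, the count of called members was 0 of 10 under every alternative run, including each array left out. The smallest adjusted p over the alternatives was 0.567, 0.163, 0.107 and 1.0. The mean differences, most near 0, changed sign in 23 of 166, 20 of 126, 7 of 176 and 18 of 116 refits. At 1.5-fold in place of 2-fold, 2 genes differed between PSI-F and PSI on day 3 and 1 on day 7. At 4-fold, 0 genes were higher and 0 lower than Diabetic on any graft. With Control as the baseline, 4 genes were 2-fold higher and 0 lower, and the share of all genes was not counted for this baseline. When the probe sets of a gene were averaged, 0 were 2-fold lower than Diabetic, although 3 of the 4 probe sets of Flt1 passed singly on at least 1 graft. After cyclic loess, 1 gene (Kdr) had all 8 grafts above both biopsies and 2 genes (Vegfc and Angpt2) were highest on day 3 among PSI-F grafts. That normalization moved the median of all genes by at most 0.1024, in PSI-F on day 7. The 1.5-fold threshold and the last patterns were chosen after the data were seen. The cause of these changes was not tested. PSI-F and PSI were paired by day in the main comparison, and without the day as a block 0 of 10 were called as well. Groups share no other numbering of replicates. Precision was limited by 10 arrays and by probe sets near the array median.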

Other observations

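Genes with the level pattern most like each member over the 10 arrays were looked for among 9264 or 9265 other genes whose highest level was 5 or more. They are given as a description, since with 10 arrays that share tissue and handling many genes correlate. Nearest to Vegfa was Tctex1d2 (Pearson's r = 0.95), then Chst11 (0.94) and Tmem263 (0.93). Nearest to Vegfc was Fkbp11 (0.98), a chaperone of the secretory pathway, then Cdr2l (0.96) and Nt5dc2 (0.96). Nearest to Flt1 were Pbxip1 (0.98), Ehbp1l1 (0.97) and Pknox2 (0.96), and nearest to Vegfb was Znrf1 (0.97). For Kdr the 3 genes were Trim12c, Svbp and Slc39a13, at 0.93 each. For Tek they were Grasp (0.92), Thbs2 (0.91), a matrix protein that restrains vessel growth, and Klhl13 (0.89). For Angpt2 they were Mrtfb (0.93), Golga3 (0.93) and Neu1 (0.91), for Angpt1 Rab40b (0.90), Ndufa8 (0.90) and Epdr1 (0.87), and for Flt4 AI837181 (0.91), Lysmd2 (0.87) and Dlc1 (0.85). Pgf had the lowest values, with Gpd1 at 0.84, Pcx at 0.83 and Wee1 at 0.82.

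Among the members themselves, Vegfa ran most like Vegfc (r = 0.83 over the 10 arrays), Tek (0.79), Kdr (0.78) and Angpt2 (0.77). Kdr and Angpt1 gave 0.72, and Kdr and Vegfc 0.71. Vegfb and Vegfc (-0.25) and Vegfa and Pgf (-0.24) ran least alike. For Vegfa these values describe the main probe set, since its second probe set did not follow it.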
